A study of Mus musculus with 6 samples.

Results

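The 10 genes described here control the passage of a cell from rest (G0) through G1. They are the CDK inhibitors *Cdkn1a*, *Cdkn1b*, *Cdkn2c* and *Cdkn2d*, the D cyclins *Ccnd1*, *Ccnd2* and *Ccnd3*, the kinases *Cdk4* and *Cdk6*, and the retinoblastoma gene *Rb1*. They were chosen by gene symbol, and each symbol stood on 1 row of the 34745 genes of the deposited tables. All 10 had enough reads to be tested, in a comparison of 12513 genes.

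Bulk RNA-seq was carried out on hematopoietic stem cells (HSCs) sorted from the bone marrow of adult C57BL/6 mice as CD150+ CD34- CD48- LSK cells, the lineage-negative Sca1+ cKit+ fraction of the marrow. Of the samples, 3 were WT (Med23floxp/flowp in the labels) and 3 were *Med23*-deficient (KO, Mx1-cre;Med23floxp/flowp), so that the floxed alleles were shared and the Cre transgene was not. *Med23* encodes a subunit of the Mediator complex, which links transcription factors to RNA polymerase II. In this model *Mx1-cre* is switched on by interferon after poly(I:C) injection, and it acts in many interferon-responsive cells, not in HSCs alone. The age of the mice, and whether each sample was 1 animal or a pool, are not given in the sources used here, so p-values measure the spread between these samples.

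In resting stem cells the retinoblastoma protein holds E2F transcription factors in check. Growth signals raise the D cyclins, which bind Cdk4 or Cdk6, and the active kinases phosphorylate the retinoblastoma protein so that E2F target genes are transcribed and DNA replication can begin. The INK4 inhibitors p18 (*Cdkn2c*) and p19 (*Cdkn2d*) bind Cdk4 and Cdk6 directly, whereas the CIP/KIP inhibitors p21 (*Cdkn1a*) and p27 (*Cdkn1b*) bind complexes of cyclin and kinase, above all those of Cdk2. In blood-forming stem cells these genes are known for their part in quiescence and self-renewal.

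Before the members, the libraries were checked. Column totals were between 3537269 and 8131344 reads counted on genes. *Med23* itself was counted at 47.6, 70.8 and 24.1 normalized CPM (counts scaled to one library size with edgeR's TMM factors) in WT replicates 1 to 3. In KO it was counted at 31.6, 29.8 and 36.8 CPM. The groups overlapped, and the deleted gene itself was not called lower, with a fold of 0.687 and an unadjusted 95% interval from 0.363 to 1.30 (adjusted p of 0.989 in edgeR's quasi-likelihood test). The library labelled WT replicate 3 was below every KO library, so on *Med23* it went against its label. On *H19* and *Igf2* it went with its label. These genes were named after their values had been seen, so they are no independent check of that label. *H19* had 358, 470 and 505 reads in WT replicates 1 to 3 and 0 in each KO library. *Igf2* had 73, 91 and 85 reads in WT and 0, 3 and 0 in KO. For *Cdkn1a*, *Cdkn2c*, *Cdk6*, *Rbl2* and *Myc* the estimate is also given without the library labelled WT replicate 3. The fold of *Med23* is given only with that library. All 12 HSC marker genes were detected, with summed levels of 2892 to 3392 CPM in WT and 2899 to 3110 CPM in KO. Single markers differed in both directions, with 4 estimates higher and 8 lower in KO and a median of -0.22 on the log2 scale. None of the 12 was called by edgeR or DESeq2. At an unadjusted p under 0.05 in the edgeR test 2 were higher and 3 lower in KO, beside 5.71% of all genes in either direction. In every KO library 1 was higher and 4 were lower, beside 6.25% and 6.15% of all genes. Their part in the members' values was not tested. Replicate 3 of both groups carried at most 1 read on 4 Y-linked genes, against at least 1036 in every other library. *Xist* was counted at 1489 and 1589 CPM in WT and KO replicate 3, against at most 20.2 CPM in every other library. It was named after its values had been seen. By these genes replicate 3 of both groups looked female and the other libraries male. A list of 20 skeletal muscle genes summed to 206 to 519 CPM in WT and 12.5 to 42.8 CPM in KO, with 10 of the 20 at 0 in every KO library, so these transcripts moved with genotype. The part of these transcripts in the members' values was not tested. The list of 9 genes whose proteins mark cells outside the HSC gate or blood cells in general summed to 548 to 724 CPM in WT and 736 to 1005 CPM in KO, with *Il7r*, *Cd3e*, *Cd8a* and *Ly6g* at 0 in all 6 libraries, and its part in the members' values was not tested. The summed levels of erythroid, mature granulocyte, B cell and stromal markers overlapped between the groups.

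None of the 10 members passed the test between KO and WT. In edgeR's quasi-likelihood test with Benjamini-Hochberg adjustment over all genes, 0 of 10 were called at an adjusted p of 0.05, where 0.0719% of all genes tested were called. At an unadjusted p under 0.05 the same test counted 1 member, *Cdkn2c*, higher in KO, beside 5.71% of all genes in either direction and 2.94% that were higher in KO. This count did not hold under every setting. It was 0 in edgeR without the library labelled WT replicate 3, without WT replicate 2 or with replicate as a block, and 0 in limma voom. Without KO replicate 3 it was 1, with *Cdk6* in place of *Cdkn2c*, and without KO replicate 2 it was 2, *Cdkn1b* and *Cdkn2c*. Without replicate 3 of both groups it was 1, again *Cdk6*. Over all genes, the same threshold was passed by 908 of 13116 without WT replicate 3 and by 739 of 12988 without WT replicate 2. With the block it was passed by 1005 of 12513, and in limma voom by 948 of 12513. Without KO replicate 3 it was passed by 740 of 12988, and without KO replicate 2 by 632 of 13041. Without replicate 3 of both groups it was passed by 827 of 12767. DESeq2 also called 0 members, beside 0.959% of all genes. The estimate was higher in KO for 8 members and lower for 2, with a median of 0.09 on the log2 scale, against -0.01 over all genes tested. *Cdkn2c* was also the one member whose groups did not overlap, which was the case for 12.4% of all genes.

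**Figure D1:**
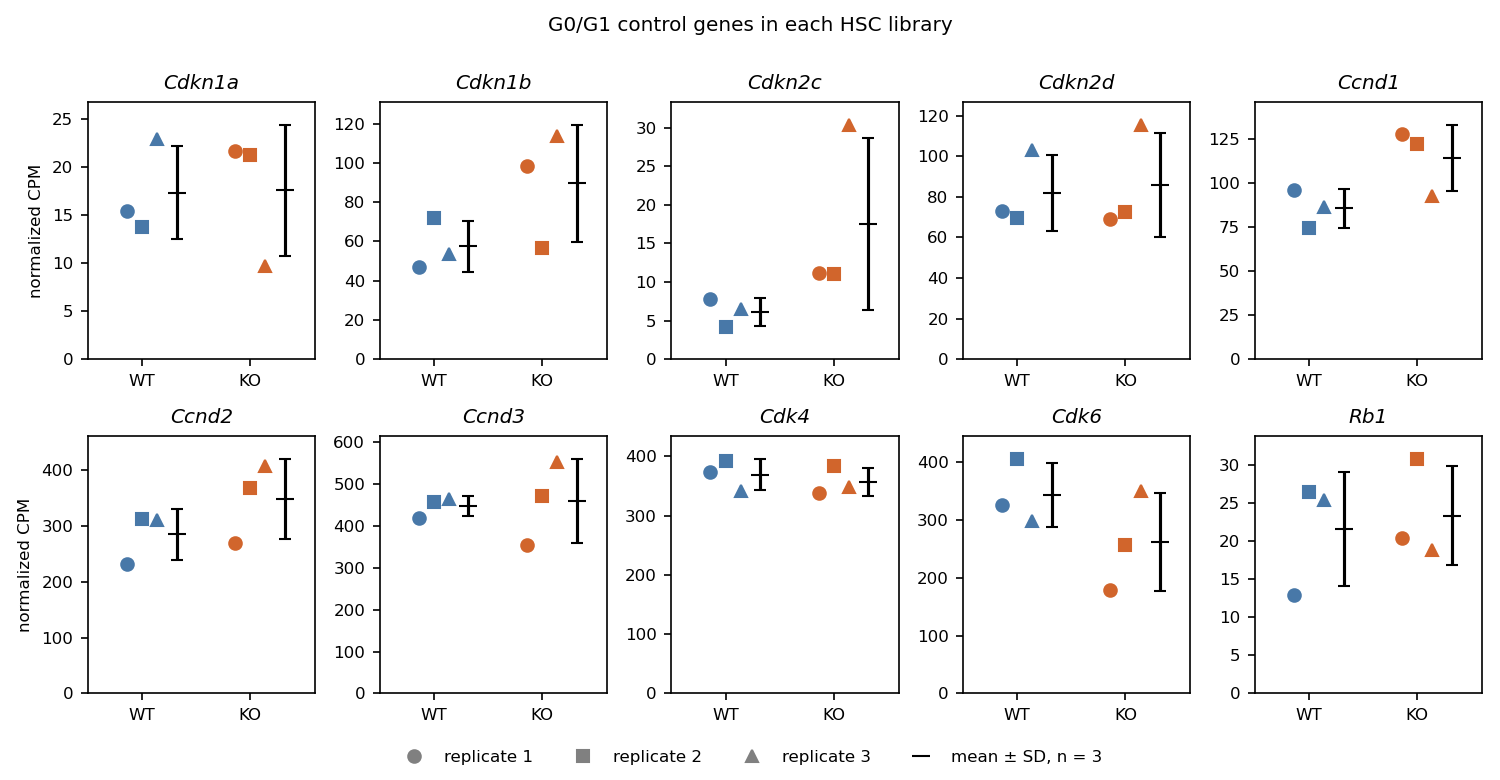
Normalized CPM of each of the 10 genes (vertical axes, each starting at 0) in the 3 WT (blue) and 3 KO (orange) libraries, with the replicate number given by the symbol; black bars are the mean ± SD. The 3 KO points of *Cdkn2c* lie above the 3 WT points, and in the other 9 panels the groups overlap.

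Of the inhibitors, *Cdkn2c* (ENSMUSG00000028551, p18) showed the largest estimate of all members. The gene lies on the minus strand of chromosome 4 from 109660876 to 109667189 (GRCm38, GENCODE M21), and its principal transcript has 3 exons. Its level was 7.79, 4.18 and 6.49 CPM in WT replicates 1 to 3, which rest on 38, 34 and 21 reads. In KO replicates 1 to 3 its level was 11.1, 11.1 and 30.4 CPM, from 55, 61 and 150 reads. Every KO library was above every WT library, and KO replicate 3 stood far above the other two. The means were 6.15 ± 1.83 CPM in WT and 17.5 ± 11.1 CPM in KO (SD, n = 3). KO over WT gave a log2 fold change of 1.51 with an SE of 0.65 and a 95% interval, not adjusted for the number of genes, from 0.07 to 2.95. With an adjusted p of 0.845 in edgeR's quasi-likelihood test it was not called. The exact two-sided permutation test gave p = 0.1, the smallest value that 3 samples against 3 can give. Leaving out KO replicate 3 gave a log2 estimate of 0.86 with an unadjusted p of 0.288 in the edgeR test. Leaving out the library labelled WT replicate 3 gave 1.56 with an unadjusted p of 0.0578 in the same test, against 0.0414 with all libraries. In KO the spread between libraries was 63.3% of the mean, where counting error alone gives 10.6%.

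2 transcript starts are listed for *Cdkn2c* in RefSeq (GRCm38.p6), and they are shown because this was the member whose groups did not overlap; the counts per gene do not tell transcripts from the 2 starts apart. Around the upstream start, the letters TTCCCGC of the E2F core motif begin 25 bases before the first transcribed base. This site, on the minus strand at chr4:109666763-109666792, lies inside the first exon of a longer GENCODE transcript, and its 30 bases are printed 5′ to 3′ with the motif in capitals. The stretch before the downstream start is intronic in that longer transcript, at chr4:109665373-109665609 on the minus strand. It holds neither the E2F core nor the other motifs searched, and is printed in lower case.
Cdkn2c, upstream start: ggggcccggccTTCCCGCtcccgcggcgcc
Cdkn2c, downstream start: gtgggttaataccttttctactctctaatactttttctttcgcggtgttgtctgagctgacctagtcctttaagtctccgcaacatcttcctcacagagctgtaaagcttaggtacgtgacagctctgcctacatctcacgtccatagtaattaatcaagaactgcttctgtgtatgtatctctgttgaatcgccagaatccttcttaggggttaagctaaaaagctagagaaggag

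The whole 300-base windows around the starts, 250 bases before and 50 after, were 73.3% G and C at the upstream start and 44.0% at the downstream one. In the 10 windows found for 7 of the members, the E2F core was found in 1, the upstream *Cdkn2c* window, on either strand (TTCCCGC or GCGGGAA), and in 4.60% of all 32851 RefSeq promoter windows. The ETS core (CCGGAAG or CTTCCGG), the recognition sequence of a family that includes Elk1, a known partner of Med23, was found in 1 window, that of the downstream start of *Ccnd3*, and in 8.86% of all windows. Its 30 bases on the plus strand at chr17:47593318-47593347, with the motif in capitals, hold it 138 bases before that start.
Ccnd3, downstream start: gacccgagggcCCGGAAGcgtgcgggccgg

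The GC box (GGGCGG or CCGCCC) was found in 7 of the 10 windows and in 35.7% of all windows, and it overlapped neither of these sites. These are letter matches, not measured binding. *Ccnd1*, *Ccnd2* and *Rb1* were without an entry.

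*Cdkn1b* (ENSMUSG00000003031, p27, plus strand of chromosome 6 from 134920401 to 134925513) had the next largest estimate. Its WT and KO levels were 47.0, 72.1 and 53.5 CPM, and 98.7, 56.4 and 114 CPM. KO replicates 1 and 3 were above all WT libraries, while KO replicate 2 lay within their range. This was a log2 fold change of 0.64 with an SE of 0.33 and an interval from -0.09 to 1.37, with an adjusted p of 0.93 in edgeR's quasi-likelihood test. Leaving out each library in turn gave log2 estimates from 0.43 to 0.88.

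*Cdkn1a* (ENSMUSG00000023067, p21, plus strand of chromosome 17 from 29090976 to 29100727), the inhibitor that p53 induces after DNA damage, was low and variable. It was counted at 15.4, 13.8 and 22.9 CPM in WT and at 21.7, 21.3 and 9.71 CPM in KO. The highest library was the one labelled WT replicate 3 and the lowest was KO replicate 3, so the groups overlapped. Its log2 estimate of 0.02 had a wide interval, from -1.09 to 1.14. Without replicate 3 of both groups the estimate was 0.57. In edgeR's quasi-likelihood test its adjusted p was 0.95 and its unadjusted p 0.292. Without the library labelled WT replicate 3 alone the estimate was 0.27, with an adjusted p of 0.99 in the same test.

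*Cdkn2d* (ENSMUSG00000096472, p19, minus strand of chromosome 9 from 21288410 to 21291407) was highest in replicate 3 of both groups. Its level was 72.8, 69.4 and 103 CPM in WT and 69.3, 72.4 and 115 CPM in KO. The other 4 libraries lay within a few CPM of each other. The log2 estimate was 0.07 with an interval from -0.60 to 0.74, and without replicate 3 of both groups it was 0.01. The libraries with at most 1 Y-linked read and high *Xist* were these same replicates 3. The share of reads on the genes *Gm26917* and *Gm42418* was also highest in them within each group. It was 18.1% there in WT, and the part of either in the level of *Cdkn2d* was not tested.

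The genes with the most similar profile to *Cdkn2d*, the member of highest FPKM (fragments per kilobase of gene, scaled to the column total), were sought among 10137 genes with a mean of at least 50 counts. By Pearson correlation of log2 CPM over the 6 libraries they were *Rps4x-ps* (r = 0.99), *Ntpcr* (r = 0.99) and *Arpc3* (r = 0.99), and 127 genes had r above 0.9. *Arpc3*, a subunit of the Arp2/3 complex that nucleates actin, was counted at 201, 203 and 314 CPM in WT and at 191, 219 and 334 CPM in KO, again highest in replicate 3. The libraries differed in depth and composition, and these genes were the most similar of 10137 over only 6 libraries. The correlations are therefore a description only.

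The D cyclins, the regulatory subunits that respond to growth signals, had estimates that were all above 0 and small. *Ccnd1* (ENSMUSG00000070348, minus strand of chromosome 7 from 144929931 to 144939925) was counted at 96.4, 74.4 and 86.2 CPM in WT. In KO it was counted at 128, 122 and 92.7 CPM. KO replicates 1 and 2 were above every WT library, and KO replicate 3 fell just below WT replicate 1. KO over WT was 0.42 on the log2 scale with an SE of 0.25 and an interval from -0.13 to 0.97, and the adjusted p in edgeR's quasi-likelihood test was 0.96. Leaving out each library in turn gave 0.32 to 0.55. The neighbouring gene on the other strand, *Oraov1* (LTO1 in GENCODE), overlaps *Ccnd1* and was counted at 25.2, 31.7 and 16.7 CPM in WT and at 43.8, 37.1 and 27.1 CPM in KO. Whether the counting used strand is not given in the sources used here, so reads from overlapping parts cannot be assigned to one gene with certainty. The same limit holds for *Ccnd2*, *Ccnd3*, *Cdk4*, *Cdk6*, *Cdkn1a* and *Rb1*, which other genes also overlap on the opposite strand, among them *Rcbtb2* and *Lpar6* at *Rb1*.

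*Ccnd2* (ENSMUSG00000000184, minus strand of chromosome 6 from 127125162 to 127152193) was counted at 232, 312 and 310.3 CPM in WT and at 269, 367 and 408 CPM in KO. KO replicates 2 and 3 were above every WT library and KO replicate 1 was not. Its log2 fold change was 0.29, with an interval from -0.21 to 0.79. *Ccnd3* (ENSMUSG00000034165, plus strand of chromosome 17 from 47505051 to 47599691) was counted at 419, 458 and 465 CPM in WT and at 355, 470.5 and 553 CPM in KO. Its WT libraries lay close together, and the KO libraries spread to both sides of them, with SDs of 24.8 CPM in WT and 99.7 CPM in KO (n = 3). *Bysl*, which overlaps *Ccnd3* on the other strand, was counted at 25.5 to 56.7 CPM. For *Ccnd3* the log2 fold change was 0.04 with an interval from -0.42 to 0.50.

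The kinases stood apart from each other in how steady they were. *Cdk4* (ENSMUSG00000006728, plus strand of chromosome 10 from 127063534 to 127067920) was counted at 373, 393 and 341 CPM in WT and at 338, 383 and 348 CPM in KO. All 6 libraries lay in a narrow band, with a spread between libraries of 7.07% of the mean in WT and 6.63% in KO. Its estimate was -0.05 on the log2 scale with an interval from -0.45 to 0.35, or a fold between 0.73 and 1.28, and it remained between -0.10 and 0.00 when each library was left out. *Tspan31* on the other strand overlaps *Cdk4* and was counted at 83.0 to 119 CPM.

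*Cdk6* (ENSMUSG00000040274, plus strand of chromosome 5 from 3341485 to 3531008), the kinase known to set how fast resting HSCs enter the cycle, had the lowest estimate. It was counted at 326, 405 and 299 CPM in WT and at 179, 256 and 349 CPM in KO. KO replicates 1 and 2 were below every WT library, while KO replicate 3 was above 2 of them. This gave a log2 fold change of -0.39 with an SE of 0.26 and an interval from -0.97 to 0.19, and the adjusted p in edgeR's quasi-likelihood test was 0.99. Without replicate 3 of both groups the estimate was -0.73, with an adjusted p of 0.68 in the same test. Without the library labelled WT replicate 3 alone the estimate was -0.48, with an adjusted p of 0.81 in that test.

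*Rb1* (ENSMUSG00000022105, minus strand of chromosome 14 from 73183673 to 73325822), the target of these kinases, was counted at 12.9, 26.4 and 25.3 CPM in WT and at 20.5, 30.8 and 18.8 CPM in KO. The groups overlapped. Its log2 fold change was 0.12 with an interval from -0.90 to 1.13, or a fold between 0.54 and 2.18.

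**Figure D2:**
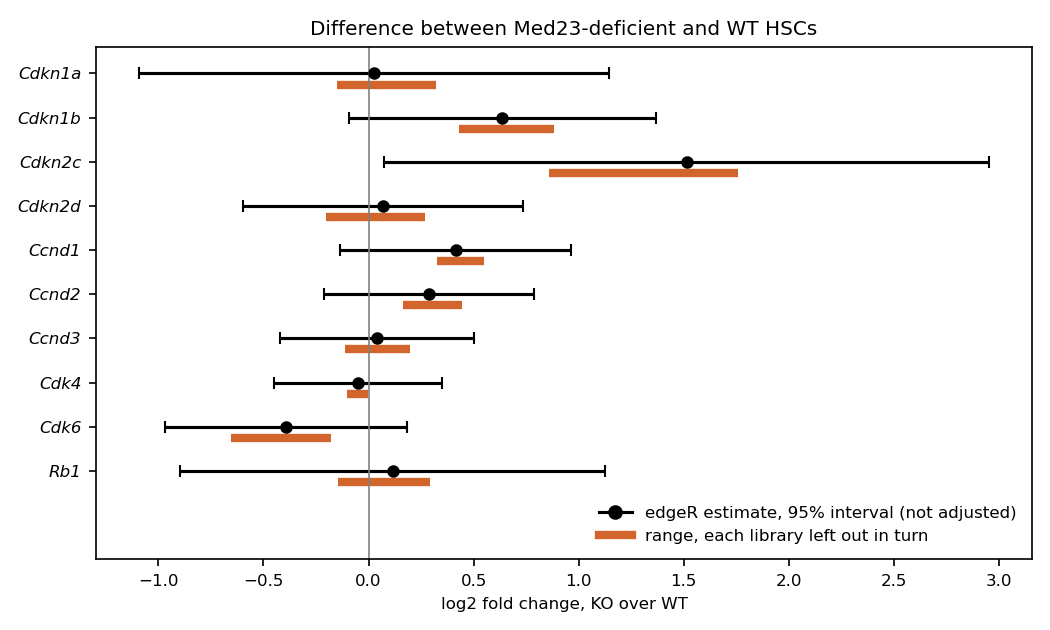
log2 fold change of KO over WT (horizontal axis) for the 10 genes, with black points and bars for the edgeR estimate and its unadjusted 95% interval, and orange bars for the range of estimates when each of the 6 libraries was left out in turn. The interval of *Cdkn2c* runs from 0.07 to 2.95 and is the one that does not include 0, and the interval of *Cdk4* is the narrowest.

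Across members, KO replicates 3 and 1 held many of the extreme values. KO replicate 3 was the highest of the 6 libraries for *Cdkn1b*, *Cdkn2c*, *Cdkn2d*, *Ccnd2* and *Ccnd3* and the lowest for *Cdkn1a*. KO replicate 1 was the lowest for *Cdkn2d*, *Ccnd3*, *Cdk4* and *Cdk6* and the highest for *Ccnd1*. Without KO replicate 3 the estimates of *Cdkn2d* and *Ccnd3* were -0.20 and -0.11, below 0, and the edgeR quasi-likelihood test still called 0 members.

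Levels of different members can be compared only per length, and the order then depended on which length was used. In the deposited FPKM values *Cdkn2d* came first with a mean of 65.2 over the 6 libraries and a range from 54.7 to 87.4. *Cdk4* followed with 56.7, from 48.9 to 62.4. *Cdkn2d* was above *Cdk4* in 3 of 6 libraries, so these 2 were not separated beyond their spread, while *Cdk4* was above the next member in 6 of 6. The D cyclins followed with mean FPKM values of 27.7 for *Ccnd3*, 25.5 for *Ccnd2* and 23.8 for *Ccnd1*. The order between neighbours held in 5 of 6 and 4 of 6 libraries, and their ranges overlapped. *Cdk6* had a mean FPKM of 17.5, *Cdkn1b* of 9.67 and *Cdkn1a* of 5.66. The lowest were *Cdkn2c* at 4.15 and *Rb1* at 3.29, with *Cdkn2c* above *Rb1* in 3 of 6 libraries.

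The length behind the deposited FPKM was in most genes not that of a transcript. It equalled the sum of the lengths of all distinct annotated exons of a gene, overlapping exons included, within 1% for 73.8% of 18944 genes. For a gene with many overlapping exon models this sum exceeds any transcript. Of the members, *Cdkn1a*, *Cdkn2d* and *Ccnd1* departed from it, with lengths of 3074, 1271 and 4210 bases against sums of 6604, 3378 and 5607. The length used for *Ccnd3* was 16274 bases, 7.70 times its principal transcript of 2113 bases. For *Cdk4* it was 6385 bases, 3.11 times the principal transcript, and for *Cdkn2d* it was 1271 bases, 0.893 times. With the principal transcript as length, *Ccnd3* came first at 215 normalized CPM per kilobase and *Cdk4* second at 177, and the order of these 2 held in 6 of 6 libraries. *Cdkn2d* followed at 58.9 and then *Ccnd2*, below it in 4 of 6 libraries. The other members stayed in the lower part of the order under every length, with *Rb1* and *Cdkn2c* at the end. These other lengths were chosen after the data had been seen.

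**Figure D3:**
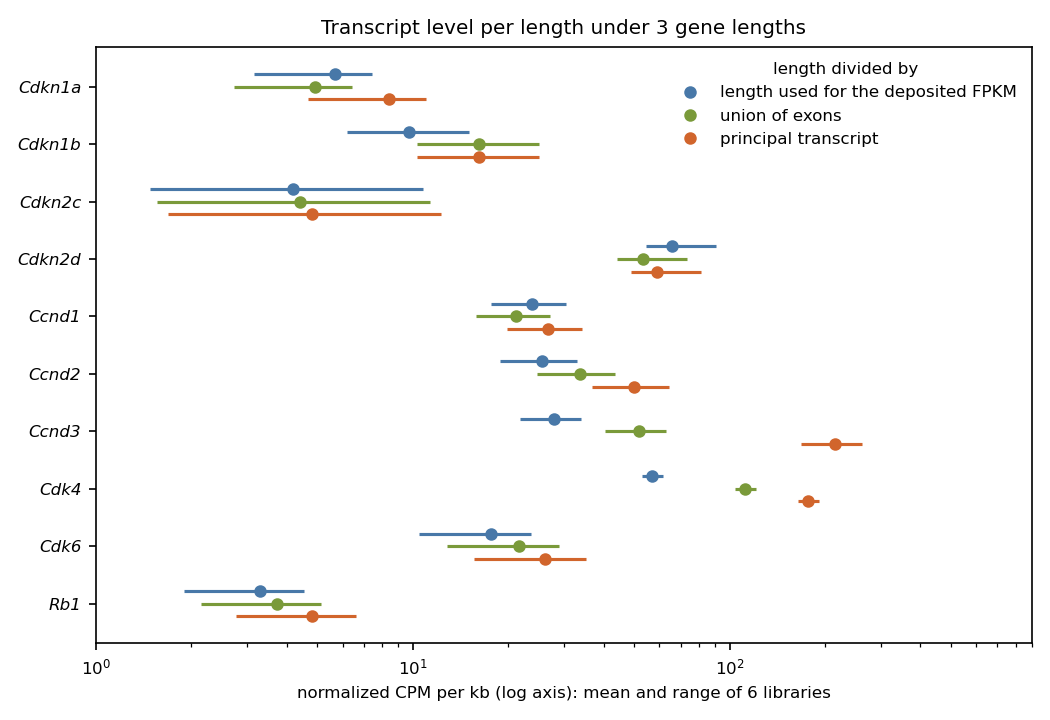
Normalized CPM per kilobase on a log axis for the 10 genes, as the mean (point) and range (line) over the 6 libraries, under the length used for the deposited FPKM (blue), the union of exons (green) and the principal transcript (orange). *Ccnd3* and *Cdk4* move to the right with the shorter lengths, to 215 and 177, and the other genes move less.

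The share of each member in its family was then computed per library. By FPKM, *Ccnd3* made up 38.2, 39.6 and 38.5% of the D cyclin level in WT, against 29.5, 33.0 and 38.2% in KO. By principal transcript its mean share over the 6 libraries was 73.6%, against 36.2% by FPKM. *Cdk6* made up 23.4% of the summed level of *Cdk4* and *Cdk6* by FPKM and 12.8% by principal transcript, and *Cdk4* was the more abundant kinase in every library under each length. *Cdkn2d* made up 77.0% of the level of the 4 inhibitors by FPKM and 66.7% by principal transcript. *Cdkn2c* was a small part of that sum, with 3.87, 2.11 and 2.34% by FPKM in WT and 5.02, 5.22 and 8.98% in KO. As all libraries are bulk samples, fewer cells that use a gene and less RNA of it per cell cannot be told apart.

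**Figure D4:**
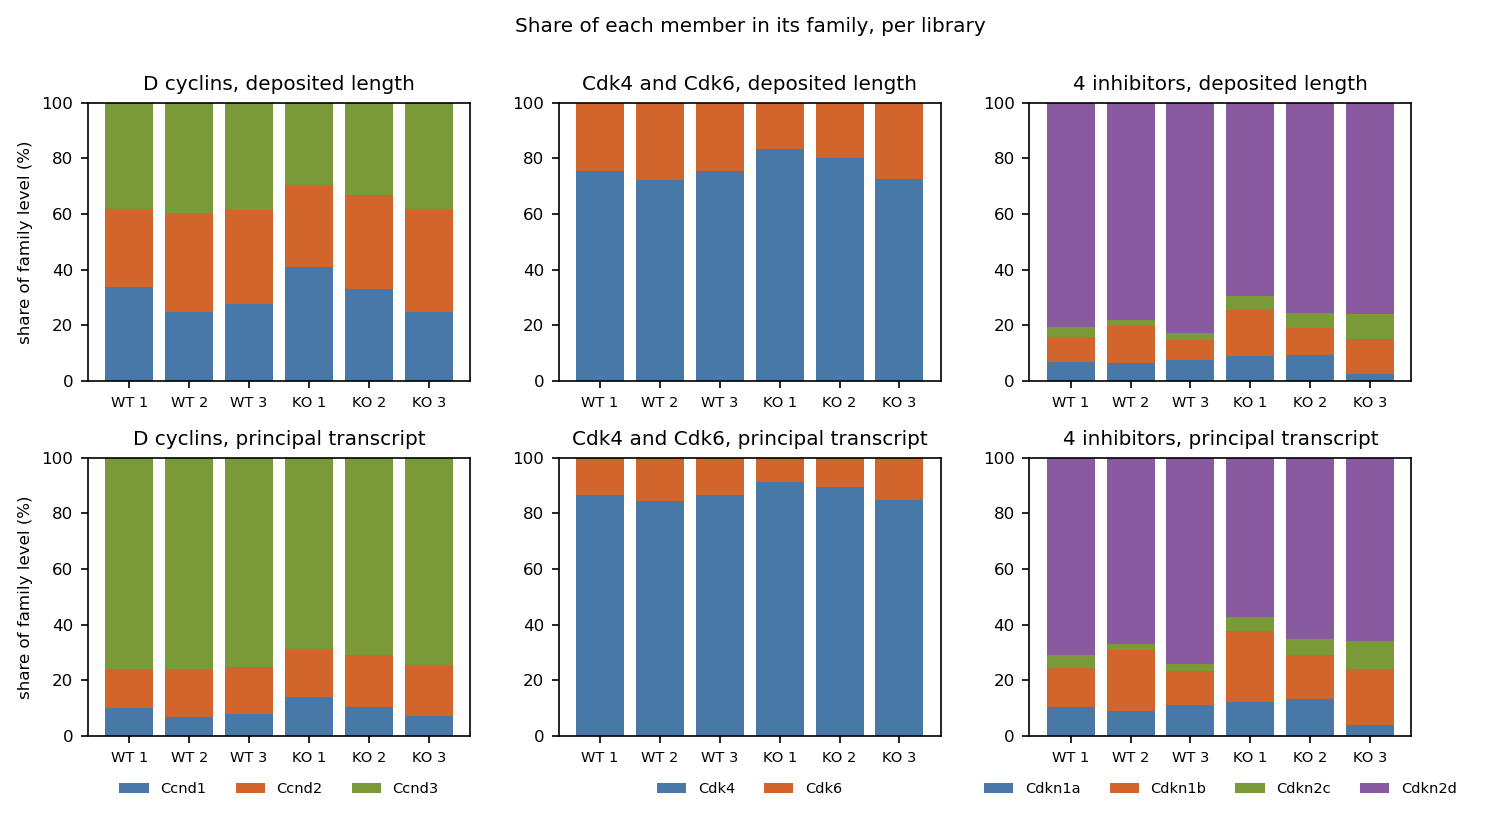
Share (%) of each member in the summed level of its family in each of the 6 libraries, with the D cyclins, the kinases and the 4 inhibitors from left to right, by the deposited length (top) and by the principal transcript (bottom). *Cdkn2d* and *Cdk4* form the largest part of their families in every library, and *Ccnd3* forms 73.6% of the D cyclins on average in the bottom row.

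Around the 10 members, 97 other genes of the pathway were listed in 9 groups. Of these, 95 were in the table and 88 had enough reads to be tested. As with the members, 0 of 88 were called, by edgeR's quasi-likelihood test or by DESeq2. In the edgeR test 4 had an unadjusted p under 0.05, beside 5.71% of all genes in either direction. Of these 4, 3 were higher and 1 was lower in KO. The groups did not overlap for 9 of the 88, with 3 higher and 6 lower in KO, where 6.25% and 6.15% of all genes did so. The median log2 estimate of the 88 was 0.03.

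The other CDK inhibitors were either abundant or nearly silent. *Cdkn1c* (p57), an imprinted inhibitor known to keep HSCs quiescent, was counted at 60.3, 151 and 132 CPM in WT and at 90.6, 174 and 77.9 CPM in KO. Its mean FPKM was 40.4, above that of *Cdkn1b*, and its log2 estimate was 0.00 with an interval from -0.88 to 0.87. *Cdkn2b* and *Cdkn2a*, the remaining INK4 genes, of which the latter was named after its values had been seen, had at most 3 reads in any library, and *Cdkn3* had at most 6. *Cdkn2b* was read by 2 fragments in each WT library and by 0 in each KO library, below the 3 counts taken as the smallest detectable signal, so no fold is given.

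Among the pocket proteins, E2F and DP factors, 11 of 12 were tested and 0 were called by edgeR. *Rbl2* (p130), the relative of the retinoblastoma protein that forms the DREAM repressor complex in resting cells, was counted at 240.3, 226 and 120.2 CPM in WT. In KO it was counted at 353, 318 and 256 CPM. Every KO library was above every WT library, by a narrow gap. KO over WT was 0.66 on the log2 scale with an SE of 0.28 and an interval from 0.05 to 1.27, with an adjusted p of 0.82 in edgeR's quasi-likelihood test. Leaving out the library labelled WT replicate 3, the lowest, gave 0.41. *Tfdp1*, the DNA-binding partner of the E2F factors, had a mean FPKM of 67.5 and a log2 estimate of -0.17.

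Of cyclin E, cyclin A and Cdk2, which act after the D cyclins, 4 of 7 genes were tested. *Cdk2* was counted at 145, 145 and 151 CPM in WT and at 168, 167 and 154 CPM in KO. These groups did not overlap, but the difference was small, at 0.15 on the log2 scale with an interval from -0.29 to 0.58. *Ccna2* (cyclin A2), present in cells in S and G2 phase, was lower in every KO library, at 19.5, 15.1 and 18.9 CPM in WT and 6.89, 3.09 and 13.6 CPM in KO. The difference was -1.18 on the log2 scale with an interval from -2.59 to 0.23, and an adjusted p of 0.93 in edgeR's quasi-likelihood test. *Cdc25a*, the phosphatase that activates Cdk2, had a log2 estimate of -0.15.

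The kinases and chaperones that activate Cdk4, listed with the cyclin C/Cdk8 module of Mediator, the complex of which Med23 is a subunit, gave 7 tested genes of 7 with log2 estimates between -0.43 and 0.21. *Cdc37*, the chaperone that folds Cdk4, had the highest mean FPKM of the group, 174, and a log2 estimate of -0.22. *Ccnh* (cyclin H), part of the CDK-activating kinase, was lower in every KO library, at 132, 100.3 and 111 CPM in WT and 72.3, 82.8 and 100.2 CPM in KO. The highest KO library and the lowest WT library differed by less than 1 CPM, and the log2 fold change was -0.43 with an interval from -0.98 to 0.12.

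For the turnover of inhibitors and G1 cyclins, 10 of 11 genes were tested. *Cks1b*, the cofactor with which Skp2 marks p27 for degradation, was counted at 64.4, 44.2 and 47.0 CPM in WT and at 30.4, 36.4 and 43.3 CPM in KO. All KO libraries were below all WT libraries, again by a narrow gap. Its log2 fold change was -0.50 with an interval from -1.23 to 0.23. The members of highest FPKM, *Skp1a* and *Ddb1*, had log2 estimates of -0.05 and -0.17. Of the DREAM and MuvB subunits, 6 of 6 were tested, and the most abundant, *Rbbp4* and *Lin37*, had log2 estimates of 0.16 and -0.16.

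The E2F target genes, a readout of the step that the members control, were split in direction. All 18 were tested, with 8 estimates above 0 and 10 below, and a median of -0.16. *Pcna*, the sliding clamp of DNA polymerase, was counted at 71.6, 69.1 and 69.5 CPM in WT and at 53.9, 66.2 and 61.1 CPM in KO. Its groups did not overlap, with a log2 estimate of -0.21 and an interval from -0.79 to 0.36. The most abundant were the helicase subunits *Mcm6*, with an estimate of -0.18, and *Mcm5*, with an estimate of 0.44. *Mki67*, a marker of cycling cells, was named after its values had been seen. Its level was 20.7, 85.9 and 43.0 CPM in WT and 13.6, 9.28 and 44.3 CPM in KO. KO replicate 3 lay at the level of the WT libraries and the other KO libraries below them. The log2 estimate was -1.16 with an interval from -2.61 to 0.29, and it moved between -2.12 and -0.51 as each library was left out, the smallest without WT replicate 2.

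Of p53 and its target genes, the pathway upstream of *Cdkn1a*, 13 of 14 were tested. *Trp53* was counted at 285, 343 and 346 CPM in WT and at 255, 335 and 378 CPM in KO, with a log2 estimate of -0.01. *Bax*, the most abundant of the list by FPKM, had an estimate of -0.25. *Btg2*, an antiproliferative gene that p53 and other signals induce, was counted at 7.18, 13.9 and 13.0 CPM in WT. In KO it was counted at 20.7, 25.8 and 66.6 CPM. All KO libraries were above all WT libraries, and KO replicate 3 was again the highest, as for *Cdkn2c*. This was a log2 fold change of 1.73 with an SE of 0.55 and an interval from 0.51 to 2.95. The adjusted p was 0.58 in edgeR's quasi-likelihood test and 0.16 in DESeq2. Leaving out KO replicate 3 gave 1.04.

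Of 18 upstream regulators of the members, all 18 were tested, and the median was -0.02. *Myc*, a growth factor-induced transcription factor that represses *Cdkn1a* and *Cdkn1b* and induces *Ccnd2* and *Cdk4*, was lower in every KO library. Its level was 101, 110.5 and 219 CPM in WT and 44.0, 73.9 and 77.9 CPM in KO. The library labelled WT replicate 3 was the highest. KO over WT was -1.13 on the log2 scale with an SE of 0.36 and an interval from -1.92 to -0.34, with an adjusted p of 0.56 in edgeR's quasi-likelihood test and 0.13 in DESeq2. Without the library labelled WT replicate 3 the estimate was -0.70. *Mycn*, its relative, was the most abundant of the list and had a log2 estimate of 0.35. *Stat5a*, which acts below cytokine receptors, was counted at 361, 329 and 319 CPM in WT and at 234, 239 and 302 CPM in KO. The difference was -0.38 on the log2 scale with an interval from -0.81 to 0.05, and *Stat5b* had an estimate of 0.09.

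**Figure D5:**
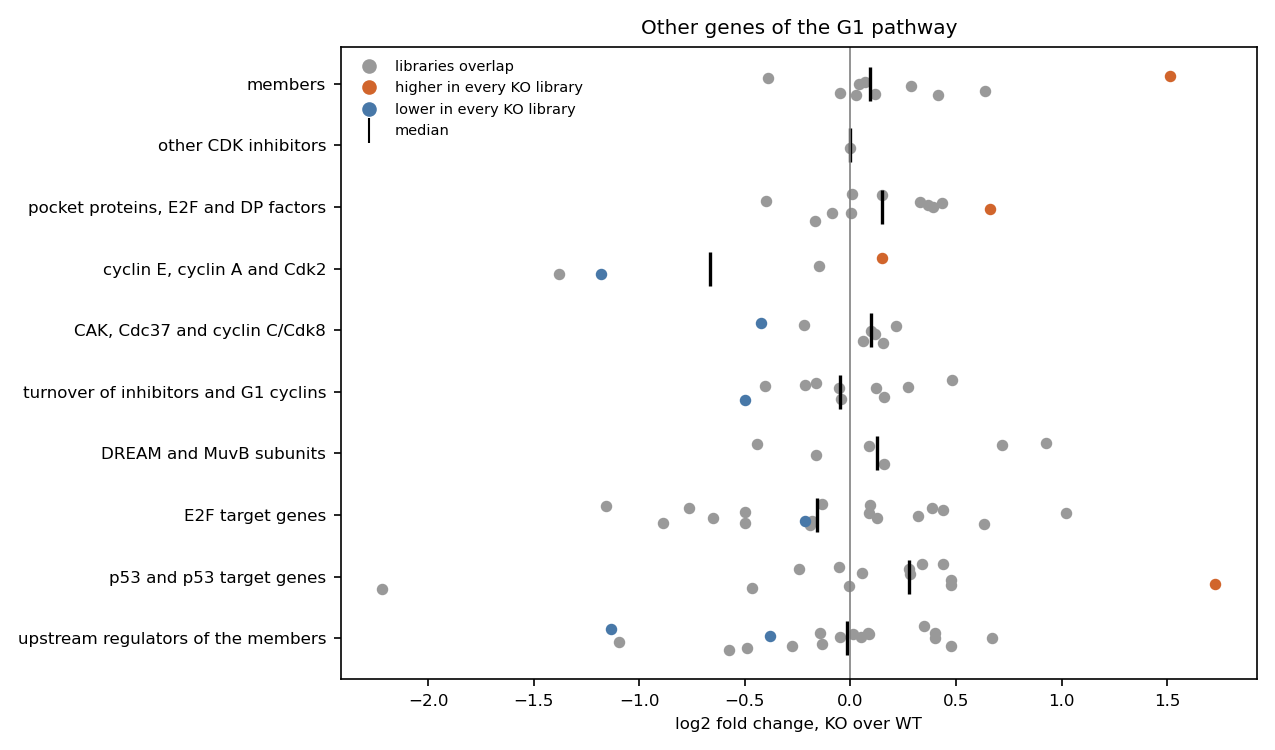
log2 fold change of KO over WT (horizontal axis) for the 10 members and the tested genes of 9 pathway lists (rows), with 1 point per gene, the median of each list as a black bar, and colour for genes higher (orange) or lower (blue) in every KO library. The medians lie between -0.16 and 0.28 except in the list of cyclin E, cyclin A and Cdk2, where 4 genes have a median of -0.66.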

How the data were processed

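Sorted HSCs of 3 WT and 3 KO samples were analysed. The authors deposited raw counts of reads on each gene and an FPKM table. Where a gene had at least 10 counts in every library, its FPKM was the count over the column total and over a gene length that differed between libraries by at most 0.00713%. The submitters' processing notes name TopHat, HTSeq and mm10; versions, annotation and strand are not given in the sources used here. The labels name a SMART-Seq v4 amplification and the methods a TruSeq kit, and neither describes molecular identifiers, so counting errors cover counting only. Replicates of 1 group differed by more than counting noise (chi-square per degree of freedom 25.9 to 53.5). Groups and replicate numbers came from the labels.

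Counts were filtered with filterByExpr, scaled by TMM and compared with edgeR 4.0.16 (quasi-likelihood, robust, R 4.3.3), adjusted by Benjamini-Hochberg over all genes at 0.05. For single members an exact two-sided permutation test was run on log2(CPM + 0.5). The procedure was also run on simulated counts, and the outcome of that run is not used here. Coordinates and lengths came from GENCODE M21 (GRCm38), promoters from RefSeq (GRCm38.p6). The members, lists and alternatives were chosen with earlier results of these data known. Named were all members, *Med23*, per list the called genes, those without overlap and the 2 of highest FPKM, and 3 genes most like the member of highest FPKM; any other gene is marked.

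The alternatives were DESeq2 1.42.0, upper-quartile scaling, no filter, at least 10 counts in every sample, the replicate number as a block, limma 3.58.1 (voom with sample weights; log2(FPKM + 1) with a mean FPKM of at least 1 or without a filter; log2(FPKM + 0.1)), 2 sets of genes left out (*Gm26917* with *Gm42418*; muscle genes with *H19* and *Igf2*), each sample left out in turn and replicate 3 of both groups left out. Single-cell and ATAC-seq data were not analysed here.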

Additional observations from a re-analysis of the deposited data

How the results depend on the processing

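Under all 18 alternatives 0 of the 10 members and 0 of the pathway genes were called. The number of genes called in the whole table, 9 with edgeR, was 120 with DESeq2, 15 with limma on log2(FPKM + 1) at a mean FPKM of at least 1, 4 without the muscle genes, *H19* and *Igf2*, and 0 with limma voom (948 genes there had an unadjusted p under 0.05, against 715 with edgeR). It ranged from 5 to 11 as each sample was left out, with 5 without WT replicate 1. With the replicate number as a block it was 5. To look for pairing, the mean of its group was subtracted from each gene's log2 CPM. These deviations, not the whole profiles, correlated over genes at 0.03 to 0.13 between same-numbered WT and KO samples. They had a mean correlation of -0.05 between other WT and KO pairs. By the deviations each sample correlated best with its own number, and the labels give no shared litter or day. The block changed no call of a member. Some small estimates changed sign. *Cdkn1a*, 0.02 on the log2 scale, was -0.011 with the replicate block and ranged from -0.15 to 0.57 as samples, or replicate 3 of both groups, were left out; *Cdkn2d* ranged from -0.20 to 0.27, *Rb1* from -0.15 to 0.39 and *Ccnd3* from -0.11 to 0.20. The causes were not tested. The number of members whose groups did not overlap, 1, ranged from 1 to 3 as samples were left out, which was run after the data had been seen; with 2 samples against 3, the groups did not overlap for 20.4 to 23.7% of all genes, against 12.4% with all samples. With the union of exons as length, the share of *Ccnd3* among the D cyclins was 48.5%, that of *Cdk6* among the 2 kinases 16.1% and that of *Cdkn2d* among the 4 inhibitors 67.7%; with the principal transcript these were 73.6%, 12.8% and 66.7%.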
